A study of Mus musculus with 24 samples.

Results

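The 35 lysosome genes described here were taken by name from the deposited table of 55421 mouse genes, and each of the 35 was found and passed the filter on low counts that left 18046 genes for testing. They were listed for what their products do, with no measured value in the rule. They comprise 7 proteases (Ctsa, Ctsb, Ctsc, Ctsd, Ctsl, Ctsz, and Tpp1), 7 glycosidases (Gaa, Gla, Glb1, Hexa, Gusb, Man2b1, and Neu1), and 7 genes of lipid handling (Lipa, Asah1, Smpd1, Psap, Ppt1, Npc1, and Npc2). The others are 7 genes of membrane proteins (Lamp1, Lamp2, Scarb2, Cd63, Mcoln1, Laptm4a, and Laptm4b), 5 of the proton pump (Atp6v1a, Atp6v0a1, Atp6v0d1, Atp6v1h, and Atp6ap1), and the regulators Tfeb and Grn.

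RNA was measured in type 2 alveolar epithelial cells (AEC2s) from Krt8+/+ (wild-type) mice and from Krt8-/- mice, which lack keratin 8. The cells were taken on day 0, right after isolation, or after 1, 3, or 7 days of 2D culture, in which they lose AEC2 features. No other treatment separates the groups. Each of the 8 groups of genotype and day held 3 libraries, labelled as biological replicates 1, 2, and 3 with a batch date each that all groups share (batches 1, 2, and 3). The knockout was not limited to AEC2s, and neither the number of mice behind a batch nor their ages is given in the labels or methods read.

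Lysosomes are acidic compartments in which proteases, glycosidases, and lipases break down material delivered by endocytosis and autophagy. A V-type ATPase pumps protons into them, heavily glycosylated membrane proteins line them, and the transcription factor TFEB is known to raise transcription of many lysosomal genes. In AEC2s the same hydrolases also serve the lamellar bodies, lysosome-related organelles that store surfactant.

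Total counts per library ranged from 10184439 to 19483386. Krt8 was at 485 to 552 CPM (counts scaled to library size, here with TMM factors) in Krt8+/+ AEC2s on day 0 and at 2599 to 5092 CPM in culture, and at 21.2 to 47.4 CPM in the 12 Krt8-/- libraries. AEC2 markers fit the label on day 0, when Sftpc alone held up to 16.9% of a library, and 8 of 8 AEC2 markers fell in culture. Markers of ciliated or club cells (Foxj1, Tppp3, Scgb1a1, Scgb3a2, and Cyp2f2) summed to 5788 to 11905 CPM in Krt8+/+ libraries on day 0. In Krt8-/- libraries of day 0 this sum was 14219 to 19590 CPM, without overlap. Its means on days 1, 3, and 7 were 9570, 922, and 32.2 CPM (Krt8+/+) and 9232, 1070, and 29.3 CPM (Krt8-/-). The part of these cells in the differences from day 0 or between genotypes was not tested. The summed level of 12 macrophage markers was highest in batch 1, intermediate in batch 2, and lowest in batch 3 in every group, at 2.56 to 26.8 times more in batch 1 than in batch 3. Levels differed widely between these markers. Mpeg1 had the highest means, at 21.4 CPM on day 0 and 69.3 CPM on day 1 in Krt8+/+ AECs, whereas C1qa, C1qb, and C1qc averaged 1.12 CPM or less in every group. The sum of 8 fibroblast markers in Krt8+/+ libraries was 296 to 994 CPM on day 0 and 143 to 261 CPM on day 1, and then 1005 to 1790 CPM (day 3) and 899 to 1911 CPM (day 7). In Krt8-/- libraries it was 333 to 732, 98.2 to 183, 632 to 1308, and 835 to 3178 CPM. On day 7 it was 957, 835 and 3178 CPM in Krt8-/- batches 1, 2, and 3. Epithelial markers (Epcam, Cdh1, Krt18, Krt19, Cldn7, and Nkx2-1) summed to 5337, 6290 and 2968 CPM there. The single fibroblast markers did not move together. In Krt8+/+ means, Pdgfra went from 19.7 CPM on day 0 to 63.5 CPM on day 1. By day 7 Col1a1 had risen from 53.9 to 522 CPM, while Dcn had fallen from 211 to 18.5 CPM. In batch 1 the Krt8+/+ libraries carried Xist and almost no Y-linked reads, whereas the Krt8-/- libraries carried Y-linked reads, so sex and genotype cannot be told apart in that batch for the X-linked Gla, Lamp2, and Atp6ap1.

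The first question is which lysosome genes differed between cultured Krt8+/+ AECs and freshly isolated Krt8+/+ AEC2s. The lysosome genes did not move as a block. Ctsc, Npc2, and Npc1 fell steeply, Ctsd, Ctsl, Psap, and Lipa rose severalfold, and most others fell within the first day and then recovered in part or stayed low. After 1 day, 4 of 35 were higher and 23 lower than on day 0 at an adjusted p under 0.05, whereas 26.2% of all 18046 genes were higher and 28.5% lower. After 3 days the counts were 9 higher and 17 lower, against a background of 26.1% and 27.8%. By day 7 there were 10 higher and 16 lower, against a background of 28.6% and 30.2%. The median log2 differences of the 35 genes were -0.70, -0.32, and -0.16 on the 3 days, and the median over all genes was 0.00 on each of these days. In bulk RNA, fewer cells of a type and less RNA per cell cannot be told apart.

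These differences are relative to the typical gene, which TMM scaling sets to no change. On day 0 a few surfactant transcripts filled much of each library, and dividing by library totals instead raised the differences from day 0 by 0.46, 0.61, and 0.45 on the 3 days (median over all genes, log2). With library totals 8, 16, and 17 genes were higher on days 1, 3, and 7, and 15, 9, and 9 were lower. Relative to that shift, the median of the 35 genes was -0.70, -0.31, and -0.15. The shares of all genes given above are those under TMM, so they are no background for counts with library totals, here or below. Under TMM factors, DESeq2 size factors, and library totals alike, the genes higher were 4, 9, and 10 on days 1, 3, and 7, and those lower were 15, 9, and 9. The calls lost with library totals, all of them lower, were those of Ctsa, Glb1, Neu1, Asah1, Lamp1, Laptm4b, Atp6ap1, and Tfeb on day 1, of Tpp1, Ctsz, Gaa, Hexa, Neu1, Lamp2, Atp6v0d1, and Tfeb on day 3, and of Tpp1, Ctsz, Neu1, Lamp2, Laptm4a, Atp6v0d1, and Tfeb on day 7. Members whose direction turned are named with their values below.

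**Figure D1:**
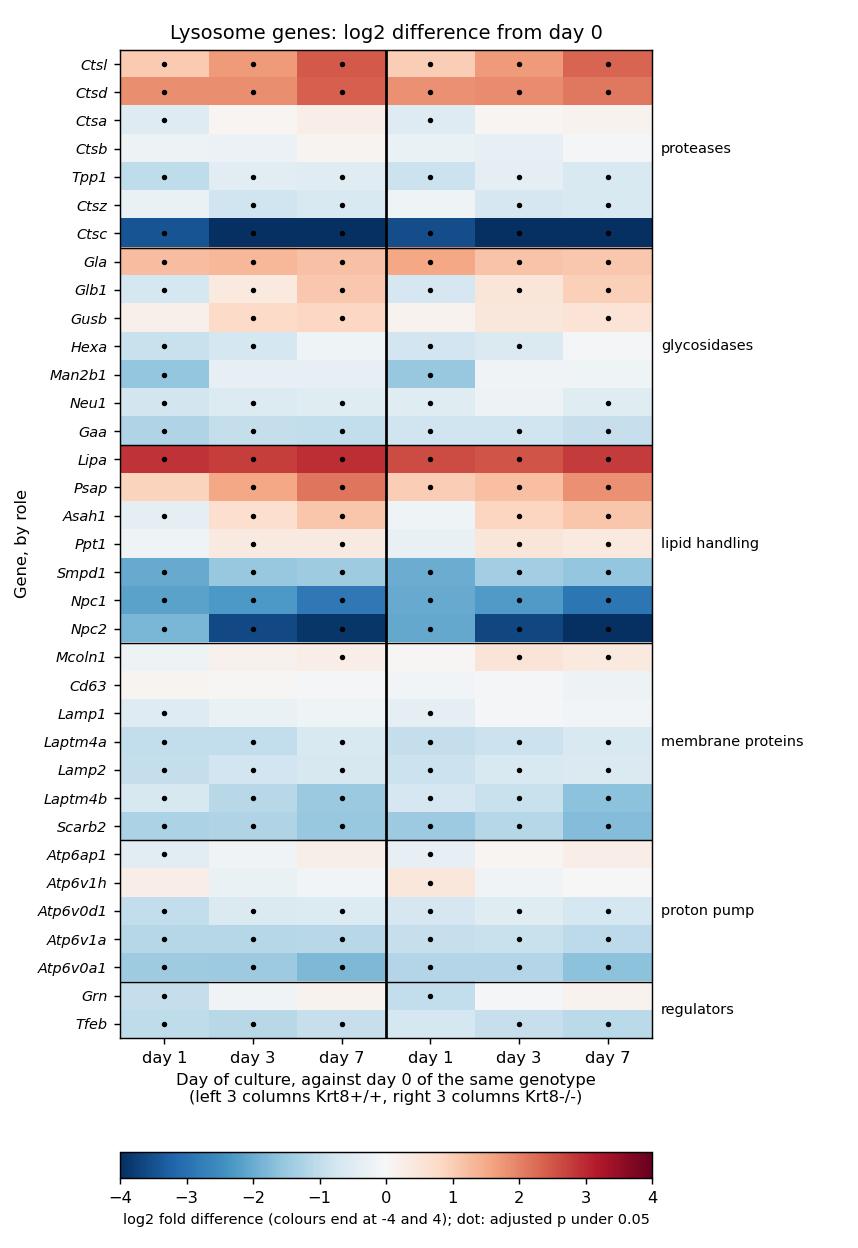
Log2 difference from day 0 of the same genotype for the 35 lysosome genes (rows, grouped by role) on days 1, 3, and 7 (columns, Krt8+/+ left and Krt8-/- right). Red is higher and blue lower than on day 0, and a dot marks an adjusted p under 0.05. Rows differ within each role, with Ctsl and Ctsd red and Ctsc dark blue among the proteases, and the left and right columns show similar colors.

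Of the 7 proteases, 2 were higher and 3 lower on each of the 3 days. Ctsc encodes cathepsin C (chromosome 7, 88278085 to 88310888 in GRCm38), a dipeptidyl peptidase known to activate serine proteases of immune cells. In batches 1, 2, and 3, the order used for all library values, its level was 3541, 3832 and 4239 CPM on day 0, 567, 165 and 332 CPM on day 1, 143, 169 and 153 CPM on day 3, and 126, 79.7 and 74.8 CPM on day 7. No library in culture came near those of day 0, and the fall had the largest log2 size of all 35 genes (log2 difference -5.37 ± 0.42 SE, adjusted p = 1.56e-09 on day 7). Ctsl encodes cathepsin L, a cysteine endopeptidase (chromosome 13, 64359337 to 64370890). Its level was 111, 121 and 120.0 CPM on day 0, 218, 278 and 226 CPM on day 1, 375, 389 and 373 CPM on day 3, and 681, 700.1 and 561 CPM on day 7. Each day lay above the day before without overlap, and the replicates were close together (log2 difference 1.03 ± 0.13 SE on day 1, 1.69 ± 0.13 on day 3, and 2.46 ± 0.13 on day 7, adjusted p = 1.29e-06, 2.29e-09, and 1.46e-11).

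Ctsd encodes cathepsin D, the main aspartic protease of lysosomes (chromosome 7, 142375911 to 142388038). Its level was 443, 519 and 407 CPM on day 0, 1839, 1518 and 1563 CPM on day 1, 2209, 1579.7 and 1229.9 CPM on day 3, and 3322, 2354 and 1504 CPM on day 7. The rise was present by day 1 (log2 difference 1.85 ± 0.26 SE, adjusted p = 5.12e-06) and on day 7 it ranged from 3.69-fold in batch 3 to 7.50-fold in batch 1. On day 1 the fibroblast sum lay below its range of day 0, although the mean of its marker Pdgfra was higher. The macrophage sum was 322, 140.1 and 42.1 CPM against 77.8, 43.1 and 29.4 CPM on day 0. The part of either cell type in the rise of Ctsd and Ctsl was not tested. Tpp1, a tripeptidyl peptidase, was lower on each day (log2 -1.02, -0.43, and -0.49), but on day 3 its direction turned with library totals (0.18). Its call on day 3 was lost without batch 1 or 2 (adjusted p = 0.0921 and 0.118), and that on day 7 without batch 2 (adjusted p = 0.101). Ctsz, a carboxypeptidase, was lower on days 3 and 7 (-0.81 and -0.60), the latter lost without batch 2 (adjusted p = 0.111). Ctsa, a carboxypeptidase that also protects the glycosidases Glb1 and Neu1, was lower on day 1 (log2 difference -0.51 ± 0.21 SE, adjusted p = 0.0449), a call that was lost without batch 2 or 3 (adjusted p = 0.440 and 0.128) and with DESeq2 (adjusted p = 0.0641). Ctsb, a cysteine protease, passed the test on none of the days (-0.20, -0.23, and 0.10, adjusted p = 0.430, 0.373, and 0.714).

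**Figure D2:**
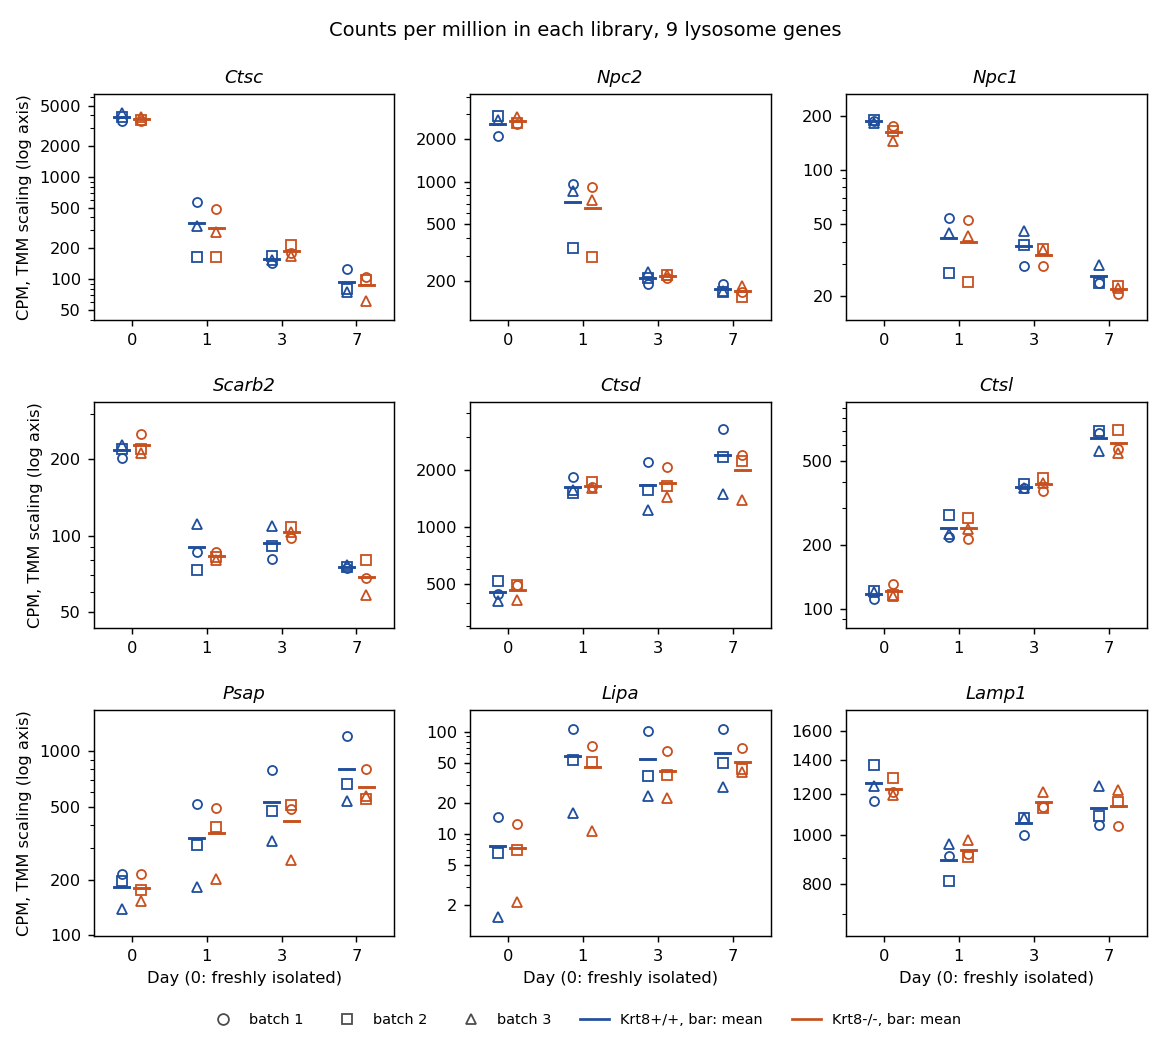
Level of 9 lysosome genes in each of the 24 libraries (CPM with TMM scaling, log axis) by day, with blue for Krt8+/+, orange for Krt8-/-, a symbol for each batch, and a bar for the mean of 3 libraries. Ctsc, Npc2, and Npc1 drop without overlap, Ctsd and Ctsl rise without overlap, and the 3 batches of Lipa keep the same order in every group.

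The 7 glycosidases split in time. First 1 was higher and 5 were lower (day 1), then 3 and 3 (day 3), and in the end 3 and 2 (day 7). Man2b1, a mannosidase that trims glycans of glycoproteins, was at 64.03, 51.02 and 55.02 CPM on day 0, 28.7, 15.1 and 14.1 CPM on day 1, 47.8, 48.3 and 40.7 CPM on day 3, and 55.9, 39.1 and 41.4 CPM on day 7. It fell on day 1 (log2 difference -1.55 ± 0.23 SE, adjusted p = 1.07e-05) and rose again from day 1 to day 3 (log2 difference 1.24 ± 0.23 SE, adjusted p = 4.77e-04), so that days 3 and 7 did not pass the test against day 0 (-0.32 and -0.32).

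Gla, the galactosidase deficient in Fabry disease, was at 6.61, 10.8 and 7.09 CPM on day 0, 16.3, 16.8 and 24.6 CPM on day 1, 24.7, 16.9 and 19.5 CPM on day 3, and 21.98, 14.9 and 18.7 CPM on day 7. It was the only glycosidase higher on all 3 days, with no overlap with day 0 (log2 1.24, 1.32, and 1.19, highest adjusted p = 2.60e-04). Glb1, the β-galactosidase whose activity is often stained as a marker of senescence, first fell (log2 difference -0.70 ± 0.15 SE, adjusted p = 5.77e-04) and then rose to 0.38 on day 3 and 1.08 on day 7 (adjusted p = 0.0347 and 3.22e-06). Its level went from 24.6 ± 2.48 CPM (SD, n = 3) to 15.1 ± 3.10 CPM on day 1 and 51.8 ± 0.934 CPM on day 7. The call of Glb1 on day 1 was lost without batch 2 (adjusted p = 0.0557), and that on day 3 was lost without any of the 3 batches (adjusted p = 0.183, 0.0733, and 0.0550), whereas that on day 7 was kept.

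Gusb, which cleaves glucuronides, was higher on days 3 and 7 (0.75 and 0.82), the former lost without batch 2 (adjusted p = 0.0542). Hexa, the α subunit of β-hexosaminidase, was lower on days 1 and 3 (-0.88 and -0.70), and on day 7 its difference of -0.16 did not pass the test and turned to 0.30 with library totals. Gaa, which degrades glycogen, was lower on each day (-1.22, -0.94, and -0.98). Neu1, a sialidase, was lower too (-0.74, -0.55, and -0.48), although its day 3 value turned to 0.0614 with library totals. Without batch 2 its calls on days 3 and 7 were lost (adjusted p = 0.115 and 0.138), and without batch 3 that on day 7 (adjusted p = 0.0890).

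Lipid handling held the most extreme members next to Ctsc. On day 7, 4 of 7 were higher and 3 lower, under TMM scaling as with library totals. Npc1 and Npc2, which together move cholesterol out of the lysosome, both fell. Npc2 (chromosome 12, 84754562 to 84773152) was at 2105, 2899 and 2719 CPM on day 0, 963, 341 and 857 CPM on day 1, 189, 208 and 229 CPM on day 3, and 189, 167 and 170.0 CPM on day 7. On day 1 batch 2 was already below the other 2 batches by more than those differed from each other, and by day 3 all 3 were close together (log2 difference -3.62 ± 0.35 SE, adjusted p = 3.57e-08). Npc1 fell from 186, 189.5 and 181 CPM on day 0 to 23.7, 23.6 and 29.7 CPM on day 7 (log2 difference -2.85 ± 0.25 SE, adjusted p = 7.81e-09). Smpd1, the acid sphingomyelinase, was lowest on day 1 (log2 difference -2.002 ± 0.16 SE, adjusted p = 3.15e-09) and rose from there to day 3 (log2 difference 0.50 ± 0.15 SE, adjusted p = 0.0195), a rise that was lost without batch 1 or 2 (adjusted p = 0.0529 and 0.267).

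Lipa, the acid lipase that hydrolyzes cholesteryl esters and triglycerides (chromosome 19, 34492318 to 34527474), was at 14.8, 6.50 and 1.55 CPM on day 0, 107, 52.7 and 16.02 CPM on day 1, 101, 36.7 and 23.4 CPM on day 3, and 106, 49.01 and 28.7 CPM on day 7. Every culture library was above every day 0 library, but the spread between batches was as wide as the change in some (log2 difference 2.96 ± 0.85 SE, adjusted p = 0.00515). Within batches 1, 2, and 3 the rise to day 7 was 7.16-fold, 7.54-fold, and 18.5-fold. Without batch 2 the call was lost on days 1, 3, and 7 (adjusted p = 0.0919, 0.0849, and 0.0699), with log2 differences of 2.92, 2.97, and 3.07.

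Of the 35 genes, Lipa alone followed the order of batch 1 over 2 over 3 in all 8 groups, as did 0.272% of all genes tested and 5 of the 12 macrophage markers. The macrophage sum was 77.8, 43.1 and 29.4 CPM on day 0 and 245, 73.2 and 9.15 CPM on day 7 in batches 1, 2, and 3. In batch 3 that sum was lower on day 7 than on day 0, in both genotypes, while Lipa was 18.5-fold and 18.6-fold higher. The day 0 levels of Lipa in that batch were low, at 1.55 and 2.16 CPM. Between these days the fibroblast sum of batch 3 went from 296 to 1911 CPM in Krt8+/+ AECs. In Krt8-/- AECs of batch 3 it went from 333 to 3178 CPM. In batches 1 and 2 of Krt8+/+ AECs it was 994 and 507 CPM on day 0 and 899 and 1002 CPM on day 7. In batches 1 and 2 of Krt8+/+ AECs both Lipa and the macrophage sum were higher on day 7. By edgeR, 0 of the 12 macrophage markers passed the test on any day against day 0 in Krt8+/+ AECs (1, 0, and 1 at an unadjusted p under 0.05 on days 1, 3, and 7), with median log2 differences of 2.04, 1.38, and 1.31. The part of macrophages or fibroblasts in the level of Lipa was not tested.

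**Figure D3:**
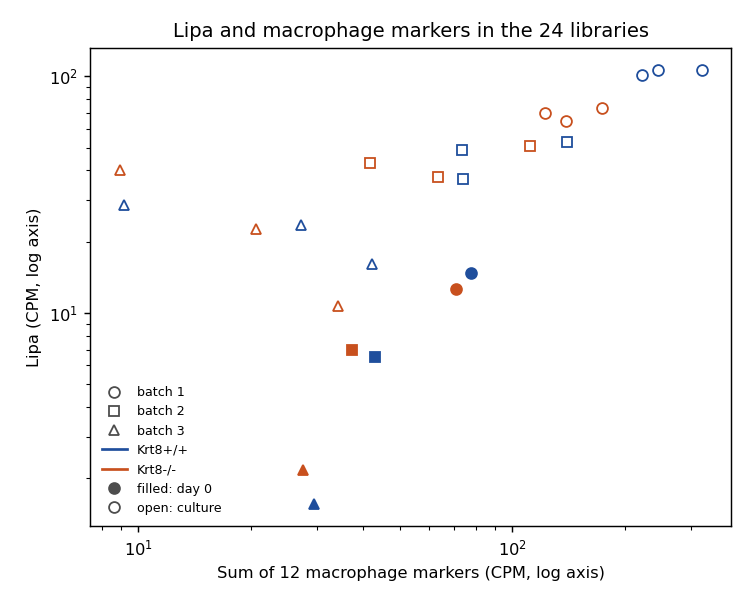
Lipa level against the summed level of 12 macrophage markers (CPM, log axes) in the 24 libraries, with a symbol for each batch, blue for Krt8+/+, orange for Krt8-/-, and filled symbols for day 0. Batch 1 lies at upper right within each set, and the batch 3 libraries of day 7 have the lowest macrophage sums, at 9.15 and 8.93 CPM, with Lipa at 28.7 and 40.2 CPM. Fibroblast sums, not plotted, were 1911 and 3178 CPM in these libraries.

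Psap, the precursor of the saposins that present lipids to hydrolases (chromosome 10, 60277627 to 60302597), was at 214, 196 and 138 CPM on day 0, 519.7, 309.8 and 184 CPM on day 1, 794, 471 and 326 CPM on day 3, and 1209.9, 666 and 537 CPM on day 7. It did not pass the test on day 1 (log2 difference 0.88 ± 0.40 SE, adjusted p = 0.0665), and with batch as a block it did. On day 7 it was higher in all 3 batches (log2 difference 2.14 ± 0.41 SE, adjusted p = 1.53e-04), by 5.65-fold, 3.39-fold, and 3.89-fold. Psap was in the batch order of the macrophage markers in 6 of 8 groups, as were Ctsb and Gusb, and Ctsd and Neu1 were in 5. The share of all genes in this order in 6 or 5 groups was not counted. The part of macrophages in the levels of these genes was not tested.

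Asah1, the acid ceramidase, was slightly lower on day 1 (-0.37, and 0.11 with library totals), a call that was lost without batch 2 or 3 (adjusted p = 0.0893 and 0.156). It was then higher on days 3 and 7 (log2 difference 1.12 ± 0.11 SE, adjusted p = 6.09e-08 on day 7). Ppt1, which removes palmitate from proteins, was higher by 0.37 on day 3 and 0.36 on day 7. Without batch 3 neither of these calls of Ppt1 remained (adjusted p = 0.253 and 0.178), and without batch 1 that on day 3 was lost (adjusted p = 0.0573).

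Of the 7 membrane proteins, 5, 4, and 4 were lower on days 1, 3, and 7, and 0, 0, and 1 were higher. With library totals 3, 3, and 2 were lower and 1, 3, and 2 higher. Scarb2, the receptor that carries glucocerebrosidase to lysosomes, was at 203, 219.9 and 228 CPM on day 0, 85.9, 73.05 and 111 CPM on day 1, 80.5, 90.7 and 109 CPM on day 3, and 74.6, 75.4 and 76.2 CPM on day 7. The drop was complete by day 1 for the most part (log2 difference -1.27 ± 0.14 SE, adjusted p = 4.15e-07), and the day 7 libraries differed by less than 2 CPM. Laptm4b, a small transmembrane protein of late endosomes, declined day by day, from 183, 210.2 and 206 CPM on day 0 to 126, 123 and 133 CPM on day 1, 78.7, 94.9 and 107 CPM on day 3, and 76.4, 70.7 and 68.9 CPM on day 7 (log2 difference -1.47 ± 0.12 SE, adjusted p = 1.84e-09). Its relative Laptm4a had log2 differences of -0.99 on day 1 and -0.60 on day 7, and Lamp2, a glycoprotein also needed for autophagy, had -0.95 and -0.64.

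Lamp1, the most abundant lysosomal membrane glycoprotein gene of the list after Cd63 per kb, was at 1164, 1373 and 1249 CPM on day 0 and 907, 812 and 957 CPM on day 1 (log2 difference -0.50 ± 0.11 SE, adjusted p = 7.40e-04), a call that was lost without batch 2 (adjusted p = 0.130). Its later differences of -0.26 and -0.16 did not pass the test and turned to 0.35 and 0.29 with library totals. Cd63, a tetraspanin of late endosomes, was at 687 ± 114 CPM on day 0 and 672 ± 101 CPM on day 7 and passed the test on none of the days (adjusted p = 0.656, 0.881, and 0.904). Mcoln1, the calcium release channel of the lysosome, was higher on day 7 by a small margin (log2 difference 0.28 ± 0.11 SE, adjusted p = 0.0401) that was lost without any of the 3 batches (adjusted p = 0.0767, 0.125, and 0.147).

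Of the proton pump genes, 4 of 5 were lower on day 1 and 3 of 5 on days 3 and 7, and with library totals 3, 2, and 2. Atp6v0a1, a subunit of the membrane sector, was at 367, 305 and 366 CPM on day 0, 173, 76.4 and 141 CPM on day 1, 116, 143 and 123 CPM on day 3, and 86.2, 108 and 107 CPM on day 7. Atp6v1a, the catalytic subunit, was at 376, 371 and 418 CPM on day 0, 229, 134 and 163 CPM on day 1, 195, 168 and 169 CPM on day 3, and 170.1, 165 and 203 CPM on day 7. Both were below day 0 in every culture library (log2 -1.78 ± 0.22 and -1.12 ± 0.18 SE on day 7, adjusted p = 7.26e-07 and 1.97e-05). Atp6v0d1, another subunit of the membrane sector, was lower on each day (log2 -0.97, -0.58, and -0.56), with a day 3 value of 0.0362 under library totals, and without batch 2 its calls on days 3 and 7 were lost (adjusted p = 0.107 and 0.0840). Atp6ap1, an accessory subunit, was lower on day 1 only (-0.45, and 0.0176 with library totals), a call lost without batch 2 or 3 (adjusted p = 0.143 and 0.111). Atp6v1h, a subunit of the cytosolic sector, passed the test on none of the days (0.28, -0.28, and -0.11, the last 2 turning to 0.34 and 0.35 with library totals). On day 1 it was called higher with library totals or without batch 2.

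Tfeb was lower on each day. Its level was 14.2, 17.2 and 14.7 CPM on day 0, 10.2, 7.19 and 5.64 CPM on day 1, 6.49, 7.00 and 7.94 CPM on day 3, and 8.98, 6.55 and 8.88 CPM on day 7. No culture library reached the lowest of day 0 (log2 difference -1.003 ± 0.30 SE, -1.10 ± 0.30, and -0.92 ± 0.30, adjusted p = 0.00739, 0.00354, and 0.0114). At these low counts the call was lost on every day without batch 2 (adjusted p = 0.149, 0.0951, and 0.231), and with library totals (adjusted p = 0.132, 0.157, and 0.187). Tfeb activity is set largely by phosphorylation and nuclear entry, which RNA levels do not measure. Grn, whose product progranulin is cleaved to granulins in lysosomes, was at 174, 204 and 199 CPM on day 0, 124, 90.01 and 84.1 CPM on day 1, 187, 181 and 158 CPM on day 3, and 218, 210.2 and 203 CPM on day 7. It dropped on day 1 (log2 difference -0.95 ± 0.14 SE, adjusted p = 1.26e-05) and was back at the level of day 0 by day 3 (-0.13 by TMM, 0.48 with library totals).

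TFEB and its relatives bind the palindrome CACGTG, most strongly in the longer form TCACGTGA, which contains it. RefSeq promoter windows of GRCm38.p6, from 250 bases before to 50 bases after the annotated start, were at hand for 30 of the 35 genes. CACGTG stood in windows of 10 of these 30 genes, and in 8.09% of all 27025 genes with a window (7.15% of the windows). TCACGTGA stood in windows of 6 of the 30, and in 1.12% of all genes (0.974% of the windows). Both motifs read the same on either strand. A match is a description of the letters and does not show binding. The 30 bases around each TCACGTGA are printed because their genes went in opposite directions, in lower case with the motif in capitals, 5′ to 3′ on the strand of the gene.
Ctsa, first (chr2:164833749-164833778, plus strand): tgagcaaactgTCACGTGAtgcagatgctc
Ctsa, second (chr2:164833766-164833795, plus strand): gatgcagatgcTCACGTGAccagagctaca
Ctsd (chr7:142387908-142387937, minus strand): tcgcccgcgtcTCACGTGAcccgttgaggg
Gla, first (chrX:134601215-134601244, minus strand): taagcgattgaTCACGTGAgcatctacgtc
Gla, second (chrX:134601182-134601211, minus strand): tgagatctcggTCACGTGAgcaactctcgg
Mcoln1 (chr8:3500462-3500491, plus strand): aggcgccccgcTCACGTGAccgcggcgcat
Atp6v1a (chr16:44139373-44139402, minus strand): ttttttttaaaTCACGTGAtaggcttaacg
Atp6v0d1 (chr8:105566050-105566079, minus strand): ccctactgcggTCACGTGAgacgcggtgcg

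The 6 genes with TCACGTGA did not share a direction in Krt8+/+ AECs on day 7. Ctsd (2.39), Gla (1.19), and Mcoln1 (0.28) were higher, Atp6v1a (-1.12) and Atp6v0d1 (-0.56) were lower, and Ctsa at 0.27 did not pass the test. The other 4 genes with CACGTG were Ctsl, Gaa, Glb1, and Lamp1, of which Ctsl and Glb1 were higher on day 7 and Gaa was lower.

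To compare levels between genes, CPM were divided by transcript length and each gene was expressed as a share of the sum over the 35, which no scaling factor changes. On day 0 in Krt8+/+ AEC2s, Ctsc held 22.1% ± 1.42 of this sum (SD, n = 3), Npc2 12.6% ± 1.12, Cd63 10.6% ± 1.01, and Lamp1 9.22% ± 0.317. On day 7, Ctsd had the highest mean share at 22.8% ± 6.46. Next were Cd63 at 13.2% ± 2.49 and Lamp1 at 10.6% ± 1.97, and these 2 were within their spread. The ranges of Ctsd (15.9% to 28.7%) and Cd63 (11.4% to 16.1%) overlapped. The share of Ctsc was down to 0.666% ± 0.125 and that of Npc2 to 1.10% ± 0.0543, while Ctsl went from 0.973% ± 0.0318 to 6.79% ± 0.739 and Psap from 1.14% ± 0.309 to 6.12% ± 2.01. The lowest shares on day 0 were those of Gla and Lipa, at 0.0417% ± 0.00944 and 0.0437% ± 0.0413. The reads of all 35 genes together made up 1.14% to 1.20% of a library on day 0, and later 0.848% to 1.01% (day 1), 0.954% to 1.19% (day 3), and 1.02% to 1.29% (day 7).

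**Figure D4:**
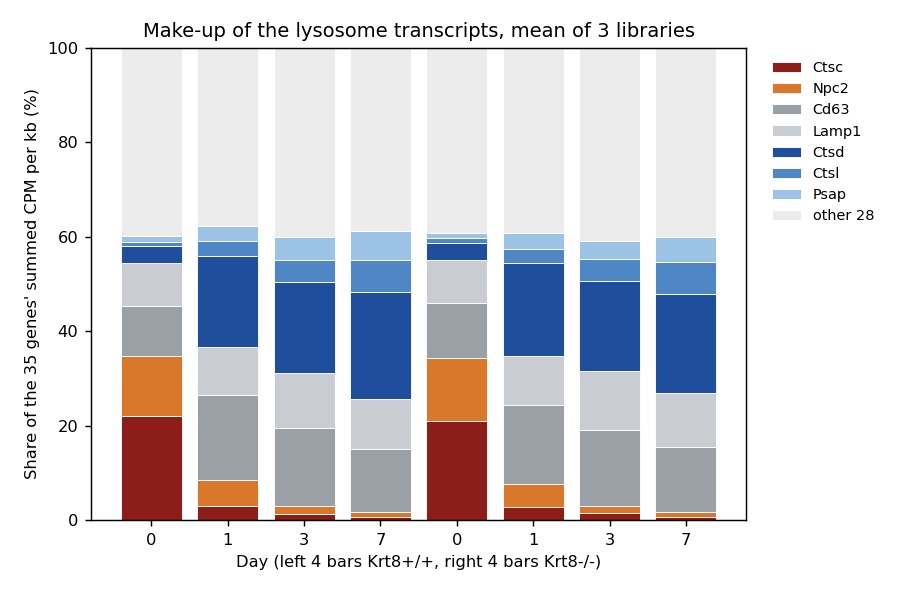
Share of the 35 genes' summed CPM per kb taken by 7 genes and by the other 28 (percent, stacked, mean of 3 libraries) on days 0, 1, 3, and 7, with Krt8+/+ left and Krt8-/- right. The red and orange parts, Ctsc and Npc2, shrink from day 0 to day 7 while the blue parts, Ctsd, Ctsl, and Psap, widen in both genotypes.

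Within culture, 16 lysosome genes passed the test between days 1 and 3 and 4 between days 3 and 7. From day 1 to day 3, 11 of 35 genes were higher and 5 lower, where 14.4% of all genes were higher and 11.9% lower. The 11 included Man2b1, Glb1 (1.09), Asah1 (1.05), Grn (0.82), and Tpp1 (0.59), all of which had been called lower on day 1 against day 0, along with Ctsl (0.65) and Ppt1 (0.55). The others that rose were Ctsa (0.60), Smpd1, Atp6v0d1 (0.40), and Mcoln1 (0.37). The 5 that fell were Npc2 (-1.79), Ctsc (-1.19), Ctsz (-0.56), Atp6v1h (-0.55), and Laptm4b (-0.45). When a batch was left out, 8 or 9 of these 16 calls were kept, and Ctsl, Glb1, Man2b1, Asah1, Grn, and Npc2 passed the test under every alternative. From day 7 against day 3, 4 genes were higher and 0 lower, where 3.11% of all genes were higher and 3.47% lower. The 4 were Ctsl (log2 difference 0.77 ± 0.13 SE, adjusted p = 7.12e-04), Glb1 (0.69), Hexa (0.54), and Asah1 (0.44). When a batch was left out, 1 or 2 of these 4 were kept, and Ctsl was called under every alternative.

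The second question is whether Krt8-/- AECs handled these genes differently. Taken alone, the Krt8-/- libraries gave a similar picture. After 1 day, 6 of 35 genes were higher and 21 lower than on day 0, where 23.7% of all genes were higher and 26.9% lower. The counts were 9 higher and 16 lower after 3 days, against 25.4% and 26.6% of all genes. By day 7, 10 were higher and 16 lower, against 28.6% and 29.9%. With library totals 9, 15, and 16 were higher and 13, 8, and 8 lower. Against its own day 0, 25, 24, and 26 genes passed the test in the same direction in both genotypes on days 1, 3, and 7, and 0 in opposite directions. The share of all genes called alike in both genotypes was not counted, so these numbers do not set the lysosome genes apart. Ctsc fell from 3492, 3637 and 3871 CPM on day 0 to 104, 97.4 and 61.04 CPM on day 7 in Krt8-/- AECs (-5.39), Ctsd rose from 495, 494 and 415 to 2399, 2246 and 1401 CPM (2.11), and Lipa rose from 12.6, 6.99 and 2.16 to 69.7, 42.8 and 40.2 CPM (2.81, lost without batch 2 at an adjusted p of 0.0786). Ctsl rose from 132, 117 and 115 CPM on day 0 to 575, 701 and 551 CPM on day 7 (2.33), and Psap from 214, 177 and 153 to 800.0, 549 and 571 CPM (1.82). Npc2 fell from 2560.1, 2597 and 2877 CPM to 166, 153 and 185 CPM (-3.996), and Scarb2 from 251, 219 and 211 to 68.3, 79.8 and 58.1 CPM (-1.72). For each of these 7 genes day 7 lay apart from day 0 without overlap. Of the pump and the regulators, Atp6v0a1 went from 388, 285 and 307 to 98.5, 115 and 104 CPM (-1.63), and Tfeb from 17.6, 15.4 and 13.2 to 8.41, 8.33 and 4.98 CPM (-1.09, lost with library totals at an adjusted p of 0.0573). Atp6v1h was the gene called in Krt8-/- AECs and on no day in Krt8+/+ AECs, higher on day 1 (0.47 against 0.28), and this call was lost without batch 1 or 3 (adjusted p = 0.182 and 0.148). In Krt8+/+ AECs it too was called on day 1 with library totals or without batch 2, so this contrast depends on the setting.

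In the direct comparison of Krt8-/- with Krt8+/+ AECs, 0 of 35 lysosome genes passed the test on days 0, 1, 3, or 7 or over days 1 to 7 together. The background is as low, since 0.0277% of all genes passed on day 0, 0.0166% on days 1, 3, and 7, and 0.0277% over days 1 to 7. By DESeq2 the count was also 0 in each. At an unadjusted p under 0.05, the counts were 0 on day 0, 2 on day 1 (Asah1 and Atp6v0d1), 1 on day 3 (Mcoln1), 0 on day 7, and 2 over days 1 to 7 (Asah1 and Mcoln1). Over all genes, 2.65%, 3.54%, 2.505%, 1.41%, and 2.88% were under this p in the same comparisons, so these counts are near the background. The test of a genotype difference that changes with day, with 3 degrees of freedom, called 0 lysosome genes at the adjusted or the unadjusted threshold, and 0.00554% of all genes, and its smallest unadjusted p values were those of Mcoln1 (0.173), Atp6v0d1 (0.174), and Laptm4b (0.181).

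The intervals say how large a difference could have been missed. They come from the fit without batch as a block, so differences between batches are part of their spread. Over days 1 to 7, the 95% interval of the log2 difference lay within -0.5 to 0.5 for 32 of 35 genes and within -1 to 1 for 34. The exceptions at the narrower limit were Ctsc (-0.38 to 0.53), Psap (-0.78 to 0.25), and Lipa (-1.33 to 0.66). The point estimate was above 0 for 22 of 35 genes, and the median was 0.04. A p value above the threshold does not show that the genotypes act alike.

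**Figure D5:**
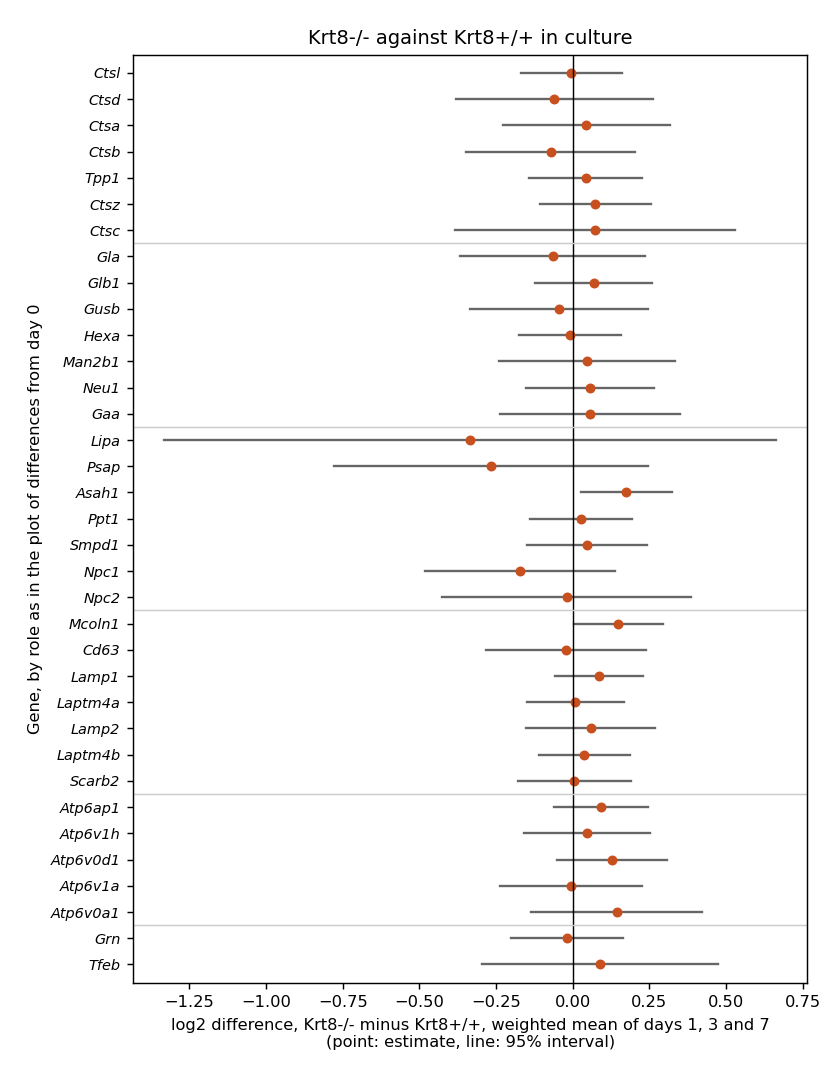
Log2 difference of Krt8-/- minus Krt8+/+ AECs for the 35 lysosome genes, as a weighted mean of days 1, 3, and 7, with points for the estimates and lines for 95% intervals. Nearly all intervals cross 0, those of Asah1 and Mcoln1 lie just above it, and that of Lipa is the widest.

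The genes with the smallest unadjusted p values in each comparison of genotypes are given as values. Asah1 on day 1 was at 111, 118 and 109 CPM in Krt8+/+ and 136, 138 and 129 CPM in Krt8-/- AECs, with no overlap (log2 difference 0.26 ± 0.11 SE, 95% interval 0.02 to 0.50, unadjusted p = 0.0345, adjusted p = 1.00). On day 3 it was at 208, 241 and 248 CPM and 271, 263 and 283 CPM, again without overlap (0.23 ± 0.11 SE, unadjusted p = 0.0548). On day 7 the groups overlapped, at 279.9, 325 and 340.1 CPM and 284, 386 and 308 CPM. Atp6v0d1 on day 1 was at 69.8, 89.2 and 72.9 CPM in Krt8+/+ and 78.5, 93.4 and 128 CPM in Krt8-/- AECs. It was higher in Krt8-/- AECs in each batch, although the groups overlapped (0.37 ± 0.14 SE, 95% interval 0.08 to 0.66, unadjusted p = 0.0138).

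Mcoln1 on day 3 was at 48.8, 50.5 and 51.2 CPM in Krt8+/+ and 61.6, 55.1 and 61.1 CPM in Krt8-/- AECs (0.24 ± 0.11 SE, unadjusted p = 0.0436). The groups did not overlap on that day. Gla on day 1 was at 16.3, 16.8 and 24.6 CPM and 23.8, 20.1 and 28.5 CPM (0.32 ± 0.23 SE), and Laptm4b on day 3 was at 78.7, 94.9 and 107 CPM and 105, 101 and 117 CPM (0.20 ± 0.11 SE). For Laptm4b the sign turned on day 7, at 76.4, 70.7 and 68.9 CPM and 57.4, 70.3 and 64.6 CPM (-0.17 ± 0.11 SE), with neither day past the threshold even without adjustment. Those with the smallest p on day 0 were Atp6v1a (-0.18), Hexa (-0.13), and Neu1 (-0.16), all with unadjusted p of 0.309 or more. Their Krt8-/- libraries on day 0 were at 366, 332 and 327 CPM for Atp6v1a, 122, 113 and 122 CPM for Hexa, and 58.9, 54.9 and 58.1 CPM for Neu1. The Krt8+/+ libraries were at 122, 138 and 131 CPM for Hexa and 60.4, 64.7 and 67.3 CPM for Neu1. For all 3 genes the Krt8-/- libraries lay below the Krt8+/+ libraries without overlap, and the adjusted p was 1.00 for each. Groups without overlap were found for 4, 1, 7, and 2 of the 35 genes on days 0, 1, 3, and 7, and for 6.88%, 5.79%, 11.0%, and 5.54% of all genes. On day 7 the smallest p values after Laptm4b were those of Neu1 (-0.16) and Ctsd (-0.25). The part of the high fibroblast sum of Krt8-/- batch 3 on day 7 was not tested. Neu1 was then at 52.7, 47.2 and 37.98 CPM in Krt8+/+ and 42.3, 50.5 and 30.4 CPM in Krt8-/- AECs. The values of the 3 batches overlapped for both genes.

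The rest of the lysosomal system was followed with lists of further genes, again in Krt8+/+ AECs against day 0. On day 7 the share of all genes was 28.6% higher and 30.2% lower under TMM, as given above. The day 7 counts of each list under TMM are to be read against it, and those with library totals are not. Of 28 other hydrolases, those higher numbered 1, 3, and 5 on days 1, 3, and 7, and those lower 18, 16, and 14. With library totals these became 3, 8, and 8 against 15, 5, and 9. On day 7 the largest rises were those of Ctsk, a collagen-degrading cathepsin (8.08 ± 3.76 to 42.6 ± 34.2 CPM, log2 difference 2.38 ± 0.80 SE, adjusted p = 0.0147), Aga, which cleaves glycosylasparagine (16.9 ± 2.10 to 57.5 ± 7.16 CPM, log2 difference 1.77 ± 0.21 SE, adjusted p = 4.03e-07), and Ctsf (1.71). Among the genes that fell were Ctsh, a cathepsin that helps process surfactant protein B (1360.3 ± 94.7 to 267 ± 28.3 CPM, log2 difference -2.35 ± 0.18 SE, adjusted p = 1.49e-09), and Creg1 (-2.11). Ctsk varied widely between batches. Its level was 53.3 ± 39.6 CPM on day 1, when the fibroblast sum was lowest but the mean of its marker Pdgfra was highest. The macrophage sum was then 322, 140.1 and 42.1 CPM, and the part of either cell type in the level of Ctsk was not tested.

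Of 17 other proton pump subunits tested, 4 were higher and 6 lower on day 7, which is close to the share of all genes, and with library totals 10 and 4. Different isoforms of the same subunit went in opposite directions. Atp6v1c1, the widely expressed C subunit, rose (107 ± 6.86 to 192 ± 6.89 CPM, log2 difference 0.85 ± 0.10 SE, adjusted p = 5.59e-07), and Atp6v1c2, a C isoform known from lung and kidney, fell (208 ± 27.03 to 5.32 ± 3.58 CPM, log2 difference -5.28 ± 0.40 SE, adjusted p = 8.51e-10). Tcirg1, the a3 subunit, rose by 1.04 and Atp6v0e by 0.95, whereas Atp6v1b2 (-1.87) and Atp6v1g2 (-2.26) fell.

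Of 16 other membrane proteins, 4 were higher and 8 lower on day 7, and with library totals 4 and 4. Lamp3, a lamellar body protein of AEC2s, fell furthest (4809 ± 91.5 to 1.78 ± 0.533 CPM, log2 difference -11.38 ± 1.06 SE, adjusted p = 1.60e-08), ahead of Abca2 (-1.65) and Mfsd8 (-1.20). Slc11a1, a metal transporter of phagocytes, rose (0.575 ± 0.219 to 4.35 ± 4.09 CPM, log2 difference 2.88 ± 1.22 SE, adjusted p = 0.0480), as did Slc38a9 (0.91) and Tmem192 (0.57). The macrophage sums given beside Lipa apply to Slc11a1 and Tfec too, and their part was not tested. Of 16 genes that deliver hydrolases to lysosomes, 4 were higher and 8 lower on day 7 (8 and 8 with library totals). Sort1, a sorting receptor, fell (644 ± 65.1 to 61.7 ± 13.9 CPM, log2 difference -3.38 ± 0.40 SE, adjusted p = 4.28e-07), as did Cln6 (-2.58) and Gnptg (-2.32), a subunit of the enzyme that starts the mannose 6-phosphate tag. Igf2r, the mannose 6-phosphate receptor, rose by 0.66, Sumf1, which activates sulfatases, by 0.57, and Nagpa, which uncovers the tag, by 0.49.

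Among 17 genes of the TFEB family and nutrient sensing, 2 were higher and 6 lower on day 7, and with library totals 8 and 5. Mitf, a relative of Tfeb, fell (43.8 ± 4.09 to 5.94 ± 1.12 CPM, log2 difference -2.88 ± 0.36 SE, adjusted p = 7.52e-07), and so did Flcn (-2.34) and Rragd (-2.27), which link nutrient signals to Tfeb. Rraga rose by 0.81, and Tfec, known from macrophages, was higher (0.148 ± 0.257 to 2.29 ± 1.55 CPM) from a level near 0 on day 0. Of 24 autophagy genes, 4 were higher and 12 lower on day 7, and with library totals 10 and 6. The autophagy receptor Sqstm1 (587 ± 95.96 to 1088 ± 17.5 CPM, log2 difference 0.89 ± 0.17 SE, adjusted p = 1.33e-04), Wipi1 (1.56), and Gabarapl1 (0.54) rose. Optn (-1.73), Map1lc3a (-1.54), and Atg13 (-1.35) fell. All 8 lamellar body genes were lower on days 1, 3, and 7 under either scaling, with a median log2 difference of -2.81, -7.88, and -9.32, against -0.70, -0.32, and -0.16 for the 35 lysosome genes. In none of these 7 lists did a gene pass the test between genotypes on any day.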

How the data were processed

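The authors deposited 1 table of raw counts of reads per gene (55421 Ensembl mouse genes and 5 reporter rows at 0). The submitters' processing notes list cutadapt 2.3, STAR 2.7.8a, RSEM 1.3.3, and GRCm38, without roles, and whether estimated counts were rounded is not stated. The counts are not strand-resolved as far as stated, so reads of overlapping antisense genes cannot be separated. The members and lists were chosen with earlier results of these data known.

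Symbols of GENCODE M21 matched 55154 genes. Low counts were removed by filterByExpr (minimum count 10, minimum total 15), and the rest was scaled with TMM and fitted in edgeR 4.0.16 (R 4.3.3) by 1 quasi-likelihood model of 8 groups with 16 residual degrees of freedom. P values were adjusted by Benjamini-Hochberg over 18046 genes, with a threshold of 0.05, and the fit was tested on simulated data. For day 7 against day 0 in Krt8+/+ AECs it recovered 74.7% of 4-fold and 38% of 2-fold changes. For Krt8-/- against Krt8+/+ AECs on day 1 it recovered 61.2% and 34.7%. The changed genes were drawn from all genes tested, so many true 2-fold differences can be missed. SEs were worked out from the log2 difference and the F statistic of its test, and 95% intervals from these SEs, so both are approximate. Days 1, 3, and 7 were weighted as in the area of a trapezoid. Fits with batch as a block, DESeq2 1.42.0, other scalings, no filter, the libraries compared alone, and each batch left out were the alternatives. Transcript length was the median of GENCODE transcripts matched to RefSeq mRNAs. RefSeq promoter windows matched 30 of the 35 genes.

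The labels give the same 3 batch dates in every group, so the numbers pair libraries, and the deviations from the group mean, taken across genes, correlated between paired libraries at -0.0345 to 0.548. No 2 libraries of a group were duplicates (chi-square per gene of 10.2 to 122 over 24 pairs). Whether a batch pooled mice is not given in the sources used here, so p values measure the spread between these batches.

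All 35 members are named. Values of every library are given for the members of each role with the largest and second largest log2 difference from day 0 in Krt8+/+ AECs among those past the threshold, for Tfeb, and for the 3 smallest p values of each genotype comparison. Npc1, Psap, Ctsd, and Lamp1 were added after their values were seen. Genes of the other lists are up to 3 per direction, past the threshold on day 7, in the same direction in each batch, with at least 1 CPM in a group. A gene that this rule selects is not reported here.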

Additional observations from a re-analysis of the deposited data

Results flagged for a closer look

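Atp6ap1 was flagged because its difference between day 3 and day 0 went down in every batch of Krt8+/+ AECs (log2 -0.13) and up in every batch of Krt8-/- AECs (0.08), a gap of 0.21. Neither change passed the test (adjusted p = 0.352 and 0.601), and with library totals the Krt8+/+ value was 0.48. Krt8-/- against Krt8+/+ AECs on day 3 did not pass the test (log2 0.17, unadjusted p = 0.168). The difference between the changes from day 0 to day 3 was not tested on its own, and the test of a genotype difference over the 3 days gave an unadjusted p of 0.561. The gene is X-linked, and in batch 1 genotype and sex cannot be told apart.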

How the results depend on the processing

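Scaling mattered most. With library totals, genes higher and lower against day 0 numbered 8 and 15 (day 1), 16 and 9 (day 3), and 17 and 9 (day 7) in Krt8+/+ AECs, with medians of -0.24, 0.29, and 0.29, and lower genes numbered 13, 8, and 8 in Krt8-/- AECs, with 15 and 16 higher on days 3 and 7 and medians of -0.19, 0.36, and 0.26. Day 3 against day 1 then had a median of 0.33, and day 7 against day 3 had 2 higher, 3 lower, and a median of -0.0566. Between genotypes the day 3 median was 0.0454. By its construction this setting drops the TMM factors, and directions turned as follows in Krt8+/+ AECs: Asah1 0.11 and Atp6ap1 0.0176 on day 1, Tpp1 0.18, Neu1 0.0614, Lamp1 0.35, Atp6v0d1 0.0362, Atp6v1h 0.34, Atp6ap1 0.48, and Grn 0.48 on day 3, and Hexa 0.30, Lamp1 0.29, and Atp6v1h 0.35 on day 7. In Krt8-/- AECs they were Neu1 0.00966, Asah1 0.32, Lamp1 0.0854, and Atp6ap1 0.17 on day 1, Tpp1 0.22, Lamp1 0.48, Atp6v0d1 0.0863, Atp6v1h 0.42, and Grn 0.48 on day 3, and Hexa 0.38, Lamp1 0.32, and Atp6v1h 0.43 on day 7. No other setting turned the direction of a member that passed the test.

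Leaving out a batch gave 9 to 10 calls for day 3 against day 1 (6 to 8 higher, 2 to 3 lower) and 1 to 2 for day 7 against day 3 (1 to 2 higher). The median was -0.40 to -0.29 for day 3 in Krt8+/+ AECs and -0.61 to -0.52 (day 1) and -0.19 to -0.0246 (day 7) in Krt8-/- AECs. The compared libraries alone gave 9 calls for day 3 against day 1 (6 higher, 3 lower) and a median of -0.61 for day 1 in Krt8-/- AECs. For day 7 against day 3 the DESeq2 test called 7 (1 lower) and DESeq2 size factors called 1 lower. The cause was not tested. With batch as a block, which follows the pairing of the dates, no call was lost, and the gained calls were Psap on day 1, Lamp1 on day 3, and Gusb and Psap for day 3 against day 1 in Krt8+/+ AECs, and Ppt1 and Tfeb on day 1 and Gusb on day 3 in Krt8-/- AECs. In all alternatives 0 lysosome genes passed between genotypes. Depth limits Lipa and Gla most, at 14 and 62 reads in their lowest libraries.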
